A study of Mus musculus with 6 samples.

Results

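The subject is a set of 8 liver genes known to respond to fasting and feeding, followed through 6 mouse liver libraries: Igfbp1, G6pc1 (listed as G6pc in the annotation), Pck1, Angptl8, Pfkfb3, Mfsd2a, Noct and Rgs16. They were taken by symbol from a count table of 12027 genes, and all 8 had a row. They were chosen by their CPM levels and ratios in these same libraries, so the values below describe them and no test was applied. The study removed part of the liver by partial hepatectomy (PHX) in male C57BL/6 mice, 8 weeks old, and sequenced mRNA from whole liver afterwards. The knockouts concerned the pair of enzymes that cycle O-GlcNAc, a single sugar on nuclear and cytosolic proteins, which OGT attaches and OGA removes. Of the 6 groups, 4 came from the OGA line, OGA-KO (OGA-/-) and OGA control (OGAfl/fl) at 14 and at 28 days. The other pair came from the OGT line at 28 days, OGT-KO (OGT-/y) and OGT control (OGTfl/y). All mice had PHX, and no unoperated liver was analysed here. The knockouts were described as specific to hepatocytes, and the Cre that made them is not given in the sources used here. Each group was 1 library made from the RNA of 3 mice in equal parts, and the spread between mice is not seen in any value below. The labels used here give neither the hour of collection nor whether food was present.

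The liver stores and releases glucose according to hormones. In fasting, glucagon acts through cAMP, and low insulin leaves FOXO transcription factors active. Both raise genes of gluconeogenesis such as Pck1 and G6pc1, and the insulin-repressed secreted protein IGFBP1. After a meal, insulin and glucose raise lipid synthesis genes through SREBP1c and ChREBP, and the insulin-induced hormone ANGPTL8. Several of these genes also cycle with the time of day, since feeding and the liver clock are coupled.

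Total counts ranged from 20433100 to 29327722 per library. Levels below are CPM scaled by TMM (trimmed mean of M values) library sizes, which correct for a shift in composition. Where OGT and OGA libraries are set side by side, their order depends in part on this scaling. Deposited CPM, given for some members below, use no TMM factors. Ranges after a log2 ratio are 95% exact counting intervals and cover counting error only. A gene was called 2-fold apart when its log2 ratio, with a prior count of 2, reached 1 in size and the higher library held at least 1 CPM. Oga had 282 and 317 counts in the OGA-KO libraries at 14 and 28 days against 1525 and 1760 in their controls. Ogt had 1205 counts in OGT-KO and 1339 in its control. By TMM these are 43.2 and 58.0 CPM, a log2 ratio of -0.43 (-0.54 to -0.31). This was short of 2-fold, so by that rule the transcript did not mark the library labelled OGT-KO. Markers of hepatocytes had 9 of 10 rows, none at 0, and summed to 91234 to 103132 CPM in 5 libraries and to 56417 CPM in OGT-KO. In the OGA-KO library at 28 days 10 exocrine pancreas markers summed to 197.7 CPM, with none at 0. In the other 3 OGA libraries they summed to 27.1 to 29.5 CPM, with 8 of 10 at 0.

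The members differed widely between libraries that carried no knockout. Across the 3 control libraries the highest level was at least 2-fold over the lowest for 7 of 8 members, against 13.3% of 12014 genes with at least 1 CPM in some library. Pck1 was the exception. On a log2(CPM + 0.1) scale the range over the controls was 6.97 for Rgs16, 3.46 for Angptl8, 3.12 for Pfkfb3, 1.89 for Mfsd2a, 1.85 for G6pc1, 1.74 for Igfbp1, 1.58 for Noct and 0.88 for Pck1, where the median of all genes was 0.42. Leaving out any 1 control library gave 5 of 8 members. Without OGT control these were Rgs16, Igfbp1, Mfsd2a, Noct and Pfkfb3, and the count over all genes went from 1594 to 123. By TMM only 2 of the 8 lay outside the range of the 3 controls in each knockout library. These were Pck1 and Mfsd2a in both OGA-KO libraries and Igfbp1 and Pck1 in OGT-KO, where 45.1%, 49.5% and 78.0% of all genes lay outside in the 14-day OGA-KO, 28-day OGA-KO and OGT-KO library. Which members lay outside depended on the scaling. By deposited CPM, Pck1 in OGT-KO (1989) lay between the controls (1674 to 2690). Mfsd2a in OGA-KO at 28 days (42.3) then lay below OGT control (45.1). In OGT-KO, Angptl8 (337 against 277 in OGT control) and Mfsd2a (54.5 against 45.1) then lay above all controls.

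**Figure D1:**
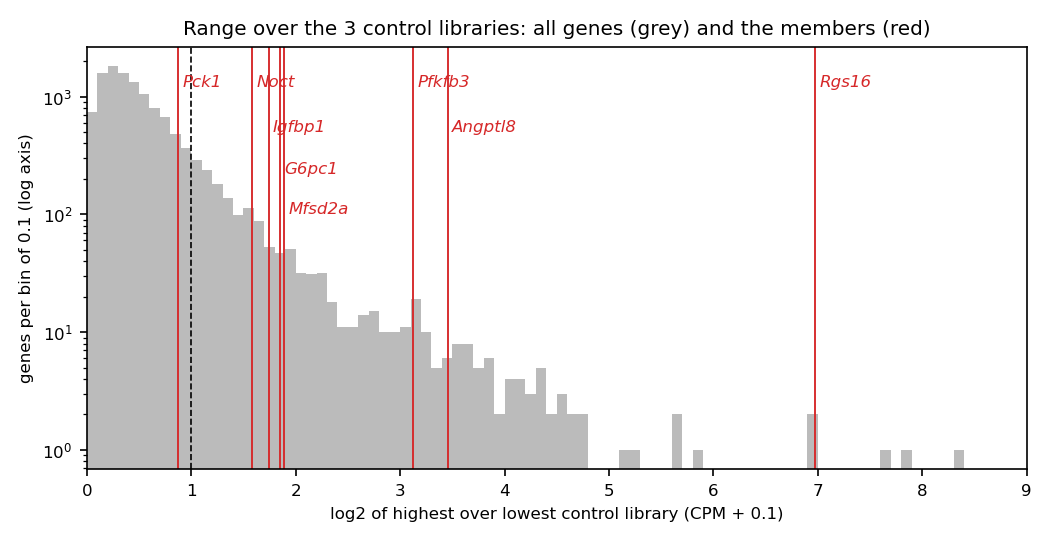
Histogram of the log2 ratio of the highest to the lowest of the 3 control libraries (x axis, on CPM + 0.1) for 12014 genes, with the number of genes per bin on a log y axis and the members as red lines; the dashed line marks 2-fold. Pck1 lies left of the dashed line at 0.88, and Rgs16 lies far right at 6.97.

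**Figure D2:**
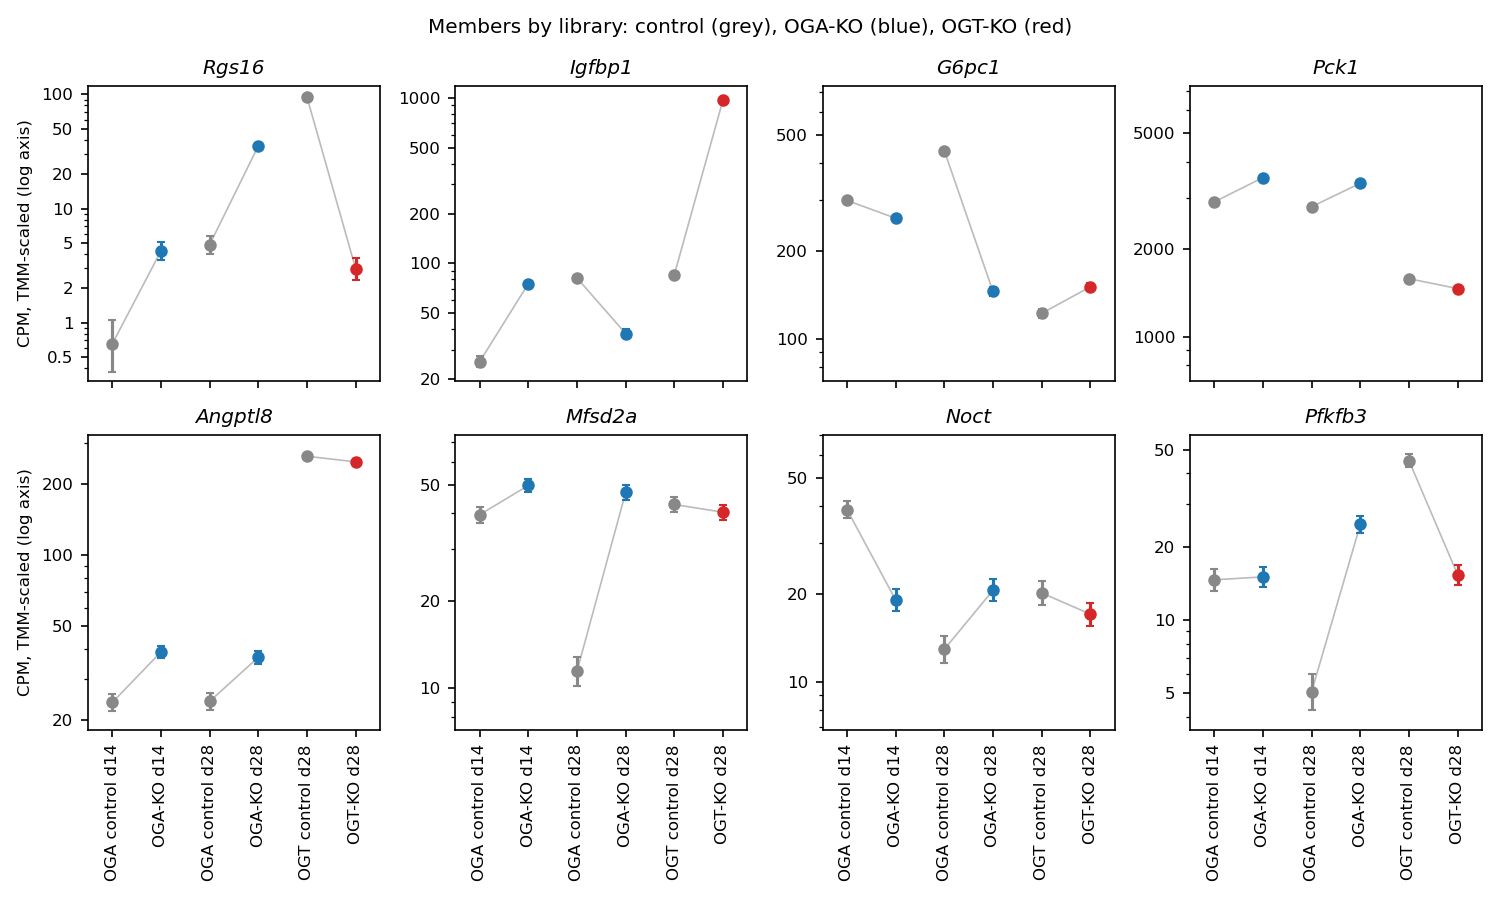
Level of each member in each library (CPM scaled by TMM, log y axis, x axis the 6 libraries), with grey points for controls, blue for OGA-KO and red for OGT-KO; bars are 95% Poisson counting intervals and thin lines join each knockout to its control. Rgs16 spans 0.653 to 94.6 CPM, and Igfbp1 reaches 970.5 CPM in OGT-KO.

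Igfbp1 (ENSMUSG00000020429) encodes a secreted protein that binds insulin-like growth factors, and insulin represses it. It had 624 counts in OGA control and 2037 in OGA-KO at 14 days, 2136 in OGA control and 932 in OGA-KO at 28 days, 1971 in OGT control and 27099 in OGT-KO. These are 25.5, 75.4, 81.6, 37.7, 85.4 and 971 CPM. OGT-KO stood far above all other libraries, and OGA control at 14 days was the lowest. By TMM, OGT control and OGA control at 28 days, next in order after OGT-KO, did not differ beyond counting error. Their deposited CPM were 90.1 and 73.7. The log2 ratio of OGA-KO to control was 1.56 (1.44 to 1.70) at 14 days and had the opposite sign at 28 days, -1.11 (-1.23 to -1.003). The OGT-KO ratio was 3.51 (3.44 to 3.57), with deposited CPM of 1316 against 90.1 in OGT control.

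G6pc1 (ENSMUSG00000078650), the catalytic subunit of glucose-6-phosphatase that frees glucose at the last step of gluconeogenesis, took another course. Its counts were 7303 in OGA control and 6996 in OGA-KO at 14 days, 11546 and 3592 in the same pair at 28 days, and 2819 in OGT control and 4208 in OGT-KO. OGA control at 28 days was the highest at 441 CPM, OGA control at 14 days followed at 298 CPM, and OGT control was the lowest at 122 CPM. By TMM, OGT-KO (151 CPM) and OGA-KO at 28 days (145 CPM) did not differ beyond counting error, while their deposited CPM were 204 and 131. OGA-KO differed from control by a log2 of -0.20 (-0.25 to -0.16) at 14 days and of -1.60 (-1.66 to -1.55) at 28 days, a 3.04-fold lower level. In OGT-KO the ratio was 0.30 (0.23 to 0.37), and 0.67 by library totals.

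Pck1 (ENSMUSG00000027513), the cytosolic PEP carboxykinase that commits oxaloacetate to gluconeogenesis, varied least. It had 71291 and 95249 counts in OGA control and OGA-KO at 14 days, 73326 and 83352 at 28 days, and 36614 and 40965 in OGT control and OGT-KO. The levels were 2909, 3525, 2801, 3371, 1586 and 1467 CPM, so the 4 OGA libraries lay above both OGT libraries. OGA-KO was above its control by a log2 of 0.28 (0.26 to 0.29) at 14 days and 0.27 (0.25 to 0.28) at 28 days. The OGT-KO ratio of -0.11 (-0.13 to -0.09) turned to 0.26 by library totals, so its sign depends on the scaling. At these depths counting error is small, and all neighbours in the order of Pck1 levels differed by more than it.

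The sequence just upstream of the start site is shown for the insulin-repressed members Igfbp1, G6pc1 and Pck1, for Noct, which held 3 matches to TGTTTTG, and for Rgs16, which had the widest range. RefSeq promoters of build GRCm38.p6 were matched by symbol for 8 of 8 members, with 2 windows for Pfkfb3. The counts were made on mm39, so the positions belong to the promoter table only. Capitals mark TGTTTTG or its reverse complement, the core of the insulin response sequence, and in Pck1 the reverse complement of TGACG, the shorter core of the cAMP response element. The windows are chr11:7197537-7197786 (plus strand) for Igfbp1, chr11:101367466-101367715 (plus strand) for G6pc1, chr2:173152823-173153072 (plus strand) for Pck1, chr3:51224197-51224446 (plus strand) for Noct and chr1:153740103-153740352 (plus strand) for Rgs16, each the 250 bases before the start site.
Igfbp1: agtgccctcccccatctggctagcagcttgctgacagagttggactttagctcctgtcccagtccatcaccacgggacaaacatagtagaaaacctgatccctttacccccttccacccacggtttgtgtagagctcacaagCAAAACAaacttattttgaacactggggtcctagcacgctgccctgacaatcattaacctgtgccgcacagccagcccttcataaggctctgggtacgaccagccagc
G6pc1: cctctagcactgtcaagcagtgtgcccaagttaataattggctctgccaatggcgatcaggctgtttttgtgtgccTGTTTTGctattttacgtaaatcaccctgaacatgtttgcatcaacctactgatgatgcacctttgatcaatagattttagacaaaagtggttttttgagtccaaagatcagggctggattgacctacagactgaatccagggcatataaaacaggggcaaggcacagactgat
Pck1: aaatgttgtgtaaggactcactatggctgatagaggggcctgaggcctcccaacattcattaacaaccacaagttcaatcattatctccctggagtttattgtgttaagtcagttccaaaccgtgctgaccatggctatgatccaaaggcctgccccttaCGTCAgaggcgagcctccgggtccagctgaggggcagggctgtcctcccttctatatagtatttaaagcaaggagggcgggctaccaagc
Noct: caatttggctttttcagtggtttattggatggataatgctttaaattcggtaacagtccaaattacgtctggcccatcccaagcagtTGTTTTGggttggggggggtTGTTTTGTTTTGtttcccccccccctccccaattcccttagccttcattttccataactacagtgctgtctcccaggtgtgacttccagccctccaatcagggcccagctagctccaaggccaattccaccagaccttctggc
Rgs16: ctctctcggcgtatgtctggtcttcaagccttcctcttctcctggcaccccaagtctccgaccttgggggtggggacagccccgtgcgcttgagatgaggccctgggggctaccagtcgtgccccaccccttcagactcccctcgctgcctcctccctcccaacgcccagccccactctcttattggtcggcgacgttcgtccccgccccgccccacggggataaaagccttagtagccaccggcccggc
On both strands, TGTTTTG was present in 5.56% of 32851 such windows. Igfbp1 held it once on the minus strand at -108 to -102 from the start site, G6pc1 once on the plus strand at -174 to -168, and Noct 3 times on the plus strand, with the last pair overlapping. The other 5 members, Pck1 among them, did not hold it. The cAMP response element TGACGTCA (1.55% of windows), the forkhead core TGTTTAC (3.17%), the D-box TTATGTAA (0.819%) and the palindromic glucocorticoid response element (0.00913%) were in no member's window. The shorter core TGACG (17.8%), contained in the full cAMP element, was found in Pck1 once at -90 to -86 and in both windows of Pfkfb3. The E-box CACGTG (6.02%) was in 1 window of Pfkfb3. None of the 7 motifs was in the windows of Rgs16, Angptl8 or Mfsd2a. A match is a match of letters only.

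Angptl8 (ENSMUSG00000047822), a secreted protein induced by insulin that takes part in the inhibition of lipoprotein lipase, separated the mouse lines more than the knockouts. It had 583 and 1052 counts in OGA control and OGA-KO at 14 days, 629 and 914 at 28 days, and 6065 and 6947 in OGT control and OGT-KO. Both OGT libraries, at 262.7 and 248.8 CPM, lay far above the 4 OGA libraries, at 23.8 to 38.9 CPM. The OGA controls did not differ beyond counting error, nor did the OGA-KO libraries of 14 and 28 days. OGA-KO was above control by a log2 of 0.71 (0.56 to 0.86) at 14 days and 0.62 (0.47 to 0.77) at 28 days. OGT control was above OGA control at 28 days by 3.45 (3.33 to 3.57), or 10.9-fold, while OGT-KO was at -0.08 against its own control and at 0.29 by library totals.

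Pfkfb3 (ENSMUSG00000026773) encodes an enzyme that makes fructose 2,6-bisphosphate, the activator of phosphofructokinase in glycolysis. It had 358 and 406 counts in OGA control and OGA-KO at 14 days, 133 and 610 at 28 days, and 1040 and 428 in OGT control and OGT-KO. OGT control was the highest at 45.1 CPM and OGA control at 28 days the lowest at 5.08 CPM. By TMM, OGT-KO (15.3 CPM) and both libraries of the OGA pair at 14 days (15.0 and 14.6 CPM) followed each other without a difference beyond counting error. Their deposited CPM were 20.8, 13.8 and 13.5. The log2 ratio of OGA-KO to control was 0.04 (-0.17 to 0.25) at 14 days and 2.26 (2.01 to 2.56) at 28 days. That of OGT-KO was -1.55 (-1.72 to -1.39), a 2.93-fold lower level, with deposited CPM of 20.8 against 47.5 in OGT control.

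Mfsd2a (ENSMUSG00000028655), a transporter of lysophosphatidylcholine that carries omega-3 fatty acids and is raised in fasted liver, was low in 1 library. Its counts were 966 and 1343 in OGA control and OGA-KO at 14 days, 300 and 1163 at 28 days, and 987 and 1123 in OGT control and OGT-KO. OGA control at 28 days held 11.5 CPM and the other 5 libraries 39.4 to 49.7 CPM. Among those 5, by TMM only OGA-KO at 28 days and OGT control differed between neighbours beyond counting error. In deposited CPM, OGT-KO was the highest at 54.5, with OGA-KO at 14 days at 45.8. OGA-KO was above control by a log2 of 0.33 (0.21 to 0.45) at 14 days and 2.03 (1.85 to 2.22) at 28 days. The OGT-KO ratio was -0.09 (-0.21 to 0.04), and 0.28 by library totals.

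Noct (ENSMUSG00000023087), nocturnin, is a rhythmic enzyme of the deadenylase family that acts on dinucleotide cofactors. It had 954 and 515 counts in OGA control and OGA-KO at 14 days, 338 and 509 at 28 days, and 465 and 476 in OGT control and OGT-KO. OGA control at 14 days was the highest at 38.9 CPM, and OGA control at 28 days was the lowest at 12.9 CPM. The other 4 libraries lay at 17.0 to 20.6 CPM, and by TMM no neighbours among them differed beyond counting error. In deposited CPM they ran from 17.6 in OGA-KO at 14 days to 23.1 in OGT-KO. The log2 ratio of OGA-KO to control was -1.03 (-1.19 to -0.87) at 14 days and 0.67 (0.47 to 0.88) at 28 days. For OGT-KO it was -0.24 (-0.43 to -0.05), and 0.13 by library totals.

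Rgs16 (ENSMUSG00000026475), a GTPase-activating protein that shortens signalling by G proteins, had the widest range. Its counts were 16 and 115 in OGA control and OGA-KO at 14 days, 126 and 875 at 28 days, and 2183 and 83 in OGT control and OGT-KO. OGT control stood highest at 94.6 CPM, followed by OGA-KO at 28 days at 35.4 CPM. OGA control at 28 days (4.81 CPM) and OGA-KO at 14 days (4.26 CPM) did not differ beyond counting error, and OGT-KO (2.97 CPM) and OGA control at 14 days (0.653 CPM) were the lowest. In deposited CPM, OGT-KO (4.03) lay between OGA control at 28 days (4.35) and OGA-KO at 14 days (3.92). OGA-KO was above its control by 2.57 (1.94 to 3.56) at 14 days and 2.86 (2.61 to 3.16) at 28 days. The log2 ratio of OGT-KO to its control was -4.96 (-5.33 to -4.68), a 31.0-fold lower level, with deposited CPM of 4.03 against 99.8. Both OGA libraries were higher at 28 than at 14 days, by 2.74 (2.13 to 3.73) in control and 3.03 (2.77 to 3.35) in OGA-KO. The OGA-KO library at 28 days was the one with pancreas markers, whose part in its Rgs16 level was not tested.

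Counted by comparison, the 2-fold rule was met at 14 days in OGA-KO by 3 of 8 members, where 0.839% of 11801 genes met it. These were Rgs16 and Igfbp1, higher (0.534% of genes), and Noct, lower (0.305%). With a minimum of 5 CPM the Rgs16 call was lost, which left 2. At 28 days 5 of 8 met it, where 2.57% of 11851 genes did, with Rgs16, Mfsd2a and Pfkfb3 higher (1.7% of genes) and Igfbp1 and G6pc1 lower (0.869%). Pancreas markers were high in that OGA-KO library, as were 2 of 3 adipocyte markers with a row, Plin4 (1.16) and Cfd (2.34), and their part in these ratios was not tested. In OGT-KO 3 of 8 did, where 28.1% of 11803 genes did, with Igfbp1 higher (16.4%) and Rgs16 and Pfkfb3 lower (11.7%). At both times and in the same direction the OGA-KO pair met the rule for Rgs16 (0.162% of 11693 genes), though not with a minimum of 5 CPM, and in opposite directions for Igfbp1 (0.0257%). Since the members were chosen with these ratios in view, nothing is read from these counts against the background.

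Members also differed in the comparisons that did not set a knockout against its control. Between the OGA controls, 28 against 14 days, 5 of 8 members met the rule, where 0.927% of 11758 genes did. Rgs16 and Igfbp1 were higher at 28 days, as were 0.519% of genes (1.68 for Igfbp1, 1.55 to 1.81), and Mfsd2a (-1.78, -1.97 to -1.59), Noct (-1.59, -1.78 to -1.41) and Pfkfb3 (-1.51, -1.82 to -1.23) were lower, as were 0.408%. With a minimum of 5 CPM Rgs16 was lost here too, which left 4. Between OGT control and OGA control at 28 days 5 of 8 met it, where 10.4% of 11782 genes did. Rgs16 (4.27, 4.04 to 4.57), Angptl8, Pfkfb3 (3.13, 2.89 to 3.42) and Mfsd2a (1.89, 1.71 to 2.09) were higher in OGT control (4.72% of genes), and G6pc1 (-1.85, -1.91 to -1.79) was lower (5.7%). That contrast joins the line with anything else that set these pools apart, and these cannot be told apart. Between the OGA-KO libraries of 28 and 14 days Rgs16 alone met the rule, where 1.32% of 11858 genes did (0.97% higher and 0.346% lower), and Igfbp1 at -0.999 (-1.11 to -0.89) was just short of it. By library totals Igfbp1 met the rule too, at -1.03.

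The OGA control library at 28 days is shared by 3 of these comparisons. It held the highest G6pc1 level and the lowest Mfsd2a, Noct and Pfkfb3 levels of all 6 libraries. For Mfsd2a the OGA-KO level hardly moved between the times (49.7 and 47.0 CPM), while the control level went from 39.4 to 11.5 CPM. For Noct the OGA-KO levels were 19.1 and 20.6 CPM, with controls at 38.9 and 12.9 CPM. The difference between the OGA-KO ratios of 28 and 14 days, with its counting interval, was -2.68 (-2.85 to -2.51) for Igfbp1, 2.22 (1.88 to 2.56) for Pfkfb3, 1.70 (1.45 to 1.95) for Noct, 1.70 (1.48 to 1.91) for Mfsd2a and -1.40 (-1.47 to -1.33) for G6pc1. It was 0.29 (-0.51 to 1.09) for Rgs16, -0.09 (-0.30 to 0.12) for Angptl8 and -0.01 (-0.03 to 0.01) for Pck1. These intervals of differences are normal approximations from the counts, not exact ones, and hold no difference between mice or pools.

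**Figure D3:**
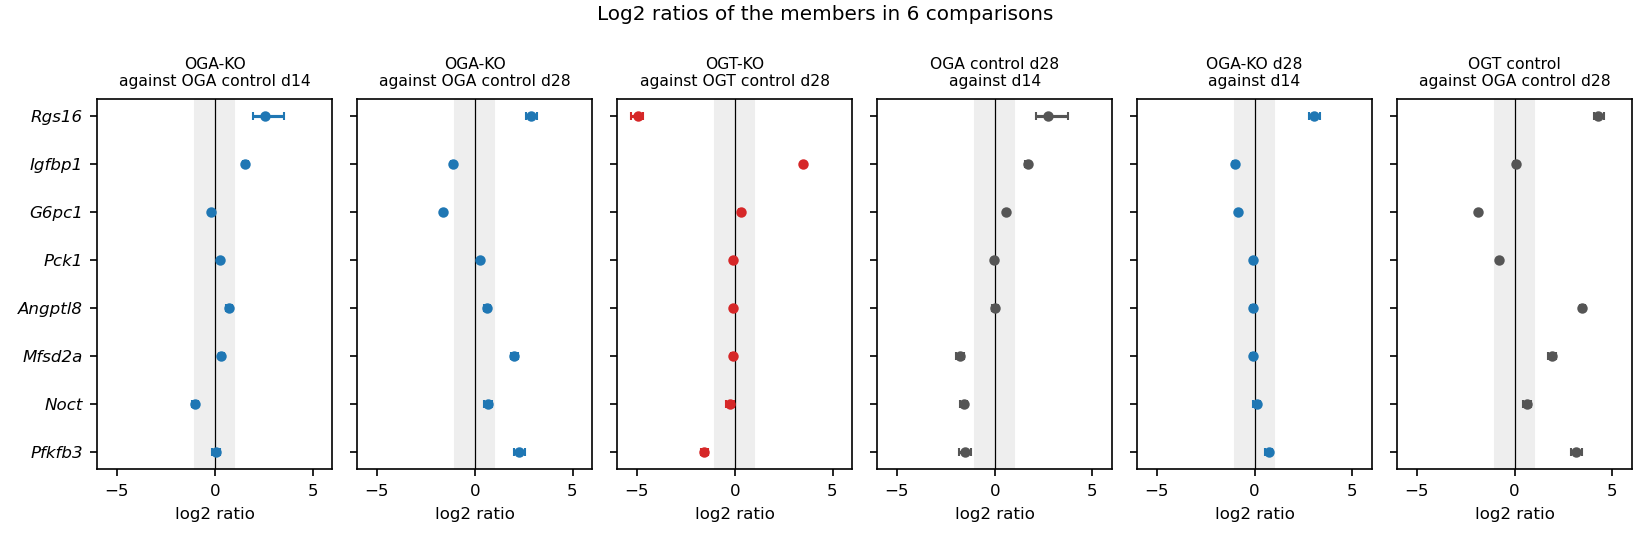
Log2 ratio (x axis) of each member (y axis) in the 6 comparisons, with 95% counting intervals as bars; the grey band spans less than 2-fold. In the OGA-KO pair at 28 days 5 points lie outside the band, and 5 do so between the OGA controls of 28 and 14 days.

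Over the 6 libraries, the genes whose log2(CPM + 0.1) followed each member most closely were sought. The search took genes with a mean of at least 5 CPM and an SD of at least 0.5. Genes with only a provisional name, such as Gm and Rik names, were left out of the ranking. With 6 points, of which single libraries can set the value, Pearson's r is a description only. Rgs16 ran closest to Cyp2b10 (r = 0.95) and Bhlhe40 (0.93), a clock repressor. Igfbp1 ran closest to Ccn1 (0.99) and Fbxo32 (0.99), each highest in OGT-KO. G6pc1 followed the clock activator Npas2 (0.96) and Celsr1 (0.95), Pck1 followed Apoa1 (0.99) and Lcat (0.99), both of high-density lipoprotein, and Angptl8 followed Orai1 (0.999) and Mfsd5 (0.99). The nearest to Mfsd2a were Gadd45g (0.86) and Pfkfb3 (0.79), to Pfkfb3 Tsku (0.94) and Lipg (0.90), and to Noct Camk2b (0.94) and, far less closely, Cish (0.63). Between members, r was -0.91 for Pck1 with Angptl8, -0.89 for G6pc1 with Pfkfb3 and 0.55 for G6pc1 with Pck1.

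Lists of related genes, which leave out the members themselves, give the setting of these values. Genes named below for a count of 5 or fewer, where no rule had chosen them, were named after their values were seen. In OGA-KO at 14 days the median log2 ratio of all genes was 0.00. None of 12 gluconeogenesis enzymes, 15 genes induced by glucagon, cAMP or FOXO1, 10 glycogen genes, 14 SREBP1 lipogenesis genes or 13 insulin and IGF signalling genes was 2-fold apart, and their medians were 0.05, 0.04, 0.05, -0.13 and 0.01. Of 11 genes of the ChREBP list 1 was higher, Klf10 (523 against 201 counts, log2 1.23). Of 14 PPARA and fatty acid oxidation genes 1 was higher, Vnn1 (1.06), with the fatty acid hydroxylase Cyp4a10 at 0.91.

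In OGA-KO at 28 days, where all genes had a median of 0.00, single genes of insulin-regulated glucose use were 2-fold apart, and no whole list was. Irs2, an insulin receptor substrate repressed by insulin, had 660 counts in OGA-KO against 1507 (log2 -1.11, -1.24 to -0.98) and was the only 1 of 15 in the glucagon, cAMP and FOXO1 list past 2-fold. Of 14 lipogenesis genes 1 was 2-fold higher and none lower (median 0.09). Short of 2-fold in that list, Thrsp was at 0.82 and Acacb at -0.68. Ppp1r3c, a glycogen-targeting phosphatase subunit, was at -1.05 (1131 against 2482 counts) and Gys2, liver glycogen synthase, at 0.80. Beside the member G6pc1, which was lower at -1.60, no listed gluconeogenesis enzyme was 2-fold apart (0 of 12, median 0.08), with Sds at 0.96 the highest. Klf10 (1.04) was the only 1 of 11 ChREBP genes, and Cyp4a14 (1.51) the only 1 of 14 PPARA genes, past it. No insulin and IGF signalling gene was (0 of 13, median 0.01).

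The OGA controls also differed in Irs2. At 28 against 14 days Irs2 was at 1.195 (1507 against 615 counts) and Ppp1r3c at 0.81, and Irs2 was the only gene of its list past 2-fold. Both contrasts use the control library of 28 days. Set directly against 14 days, OGA-KO at 28 days had Irs2 at 0.22 and Ppp1r3c at -0.30.

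In OGT-KO more of these genes were 2-fold apart, as were more genes of all kinds (16.4% higher and 11.7% lower by TMM). By TMM 58.3% of all genes apart were higher and by library totals 77.3%, a shift of the median ratio by 0.37. Of 14 lipogenesis genes 12 were lower and none higher (median -2.19, all genes 0.00), with 10 lower by library totals. Thrsp, a lipogenic nuclear protein, had 30 counts against 7786 (log2 -8.19), and the desaturase Scd1 was at -4.63. Of 10 glycogen genes 6 were lower and 1 higher (median -1.41), with Ppp1r3b at -2.99, and 5 lower and 1 higher by library totals. Of 11 ChREBP genes 5 were lower and 1 higher (median -0.95), by library totals 5 and 2, with liver pyruvate kinase Pklr at -3.95 and ketohexokinase Khk at -3.90 against Txnip at 1.95. Of 12 gluconeogenesis enzymes 5 were lower and 2 higher (median -0.41), by library totals 3 and 2 (median -0.04), with the phosphatase Fbp1 at -2.02 and mitochondrial Pck2 at 1.77.

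The glucagon, cAMP and FOXO1 list was split in OGT-KO, with 4 of 15 higher and 4 lower (median -0.42), by library totals 4 and 2 (median -0.05). Irs2 (1918 against 340 counts, 2.22) and the kinase Sik1 (2439 against 455, 2.14) were high, as Igfbp1 was, and Lpin1 (-2.68) and Sesn3 (-1.61) were low. Of 14 PPARA genes 4 were higher and 1 lower (median 0.18), by library totals 4 and 0, with Ehhadh at 2.29, Pdk4 at 1.89 and Cyp4a14 at -1.18. Of 13 insulin and IGF signalling genes 2 were higher, Igf1r (2.35) and Grb10 (1.45), and 2 lower, Grb14 (-1.11) and Igf1 (-1.004), by library totals 4 and 0.

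**Figure D4:**
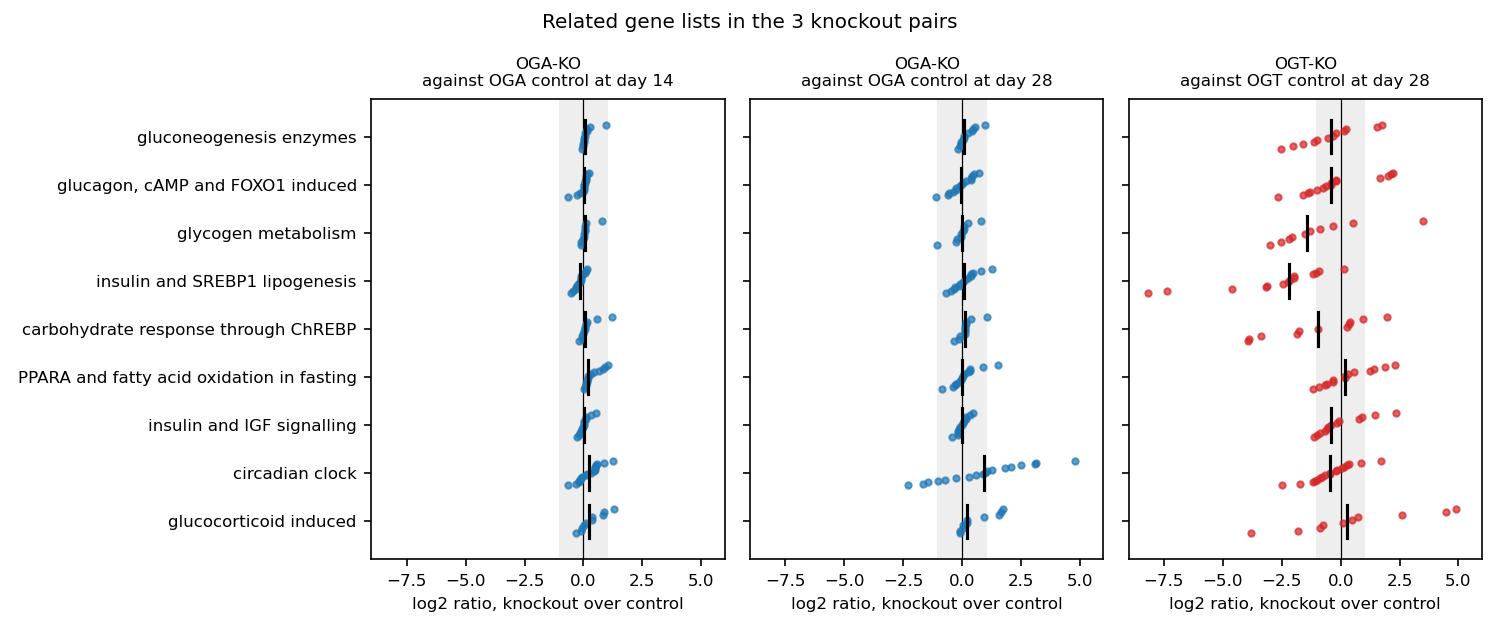
Log2 ratio of knockout over control (x axis) for each gene with a row of 9 related lists (y axis) in the 3 knockout pairs; points within a list are set in order of value, black bars are medians and the grey band spans less than 2-fold. The lipogenesis list in OGT-KO has its median at -2.19, with Thrsp at -8.19, and the clock list in OGA-KO at 28 days runs from -2.31 to 4.78.

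Relatives of the members were counted family by family. In OGT-KO 16.4% of all genes were 2-fold higher and 11.7% lower by TMM, and no family count was tested against these shares. Of 7 IGF binding protein genes beside Igfbp1 none was 2-fold apart in either OGA-KO pair, with Igfbp6 at 0.99 at 14 days and Igfbp2 at 0.93 at 28 days, where Igfbp1 was at -1.11. In OGT-KO 4 were higher (Igfbp6 2.78, Igfbp3 2.34, Igfbp7 1.97 and Igfbp5 1.958) and Igfals, the serum partner of IGFBP3, was lower at -3.92, by library totals 5 and 1. Only 4 of 11 listed RGS relatives had a row. None was 2-fold apart in OGA-KO at 14 days and 1 at 28 days, Rgs2 (72 against 35 counts, 1.08), while in OGT-KO, where Rgs16 was lower, Rgs2 (1.959), Rgs5 (1.66) and Rgs3 (1.17) were higher.

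Among 5 phosphofructokinase and PFKFB genes with a row none was 2-fold apart in the OGA-KO pairs, with Pfkfb1, the liver form, at 0.94 at 28 days. In OGT-KO Pfkp was at 1.27 and Pfkfb1 at -1.18, and by library totals Pfkfb1 was not 2-fold apart. Of 9 genes of the angiopoietin-like and lipoprotein lipase list none was apart in the OGA-KO pairs, with Angptl4, raised by fasting, at 0.46 at 14 days and -0.28 at 28 days. In OGT-KO, where 28.1% of all genes were apart by TMM, 1 was higher and 3 lower, by library totals 1 and 2. Lpl (8823 against 540 counts, 3.75) was higher, and hepatic lipase Lipc (-2.52) and Lmf1 (-1.19) were among the lower by TMM. Of 9 deadenylases related to Noct 1 was apart in any knockout pair, Angel1 in OGT-KO (-1.28), and by library totals no deadenylase was lower there and 1 was higher. Of 7 genes of lysophospholipid and omega-3 handling none was apart in the OGA-KO pairs, and 4 were lower in OGT-KO, Fads1 (-3.18), Fads2 (-1.99), Elovl5 (-1.74) and Slc27a2 (-1.64). Fads1 and Fads2 are also in the lipogenesis list, and Angptl4 is also in the PPARA list, so these counts overlap.

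Some clock and glucocorticoid genes also differed between these libraries, and their part in the members' ratios was not tested. Of 18 clock genes 1 was 2-fold higher in OGA-KO at 14 days (Dbp, 1.25), while at 28 days 8 were higher and 4 lower, led by Ciart (520 against 18 counts, 4.78) and Npas2 (68 against 364, -2.31). Of all genes 0.534% were higher at 14 days, and 1.7% were higher and 0.869% lower at 28 days. Between OGT control and OGA control at 28 days 6 were higher (4.72% of all genes) and 4 lower (5.7%), with Per1 at 1.74 and Npas2 at -2.11. Between the OGA controls Dbp alone was apart (1.46), where 0.927% of all genes were. In OGT-KO 1 was higher and 4 lower, Dbp at -2.49, and 2 and 2 by library totals. There 28.1% of all genes were apart by TMM, 16.4% higher and 11.7% lower. Of 10 glucocorticoid-induced genes 1 was higher in OGA-KO at 14 days, Zbtb16 (1.32), and 3 at 28 days, Mt2 (1.73), Fkbp5 (1.64) and Mt1 (1.57). In OGT-KO Mt2 (4.91), Mt1 (4.46) and Sgk1 (2.59) were higher and Hsd11b1 (-3.79) and Tsc22d3 (-1.79) lower, by library totals 4 and 2.

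Markers of other cells were higher in OGT-KO beside Igfbp1, and their part in its level was not tested. All 10 stellate cell and fibroblast markers were 2-fold higher, summing to 2407 CPM against 171 to 284 CPM in the other 5 libraries. So were 8 of 10 Kupffer cell and macrophage markers (1113 against 181 to 337 CPM) and 5 of 6 cholangiocyte markers with a row (464 against 42.0 to 70.4 CPM). In whole liver, a change in the number of cells of a type and a change in RNA per cell cannot be told apart.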

How the data were processed

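Per the labels' protocols, total RNA from about 50 mg of liver was made into mRNA libraries, and each pool was run in 2 lanes. STAR, Subread and edgeR and the build mm39 are named, without versions, per the submitters' processing notes. The deposited count table holds raw counts of 12027 Ensembl genes. The filter behind its rows is not given in the sources used here, and every row holds at least 28 counts over the OGA libraries. The deposited CPM table divides each count by the column total in the OGA columns. Its OGT columns use totals larger than the rows by 158367 counts (OGT-KO) and 22723 counts (OGT control).

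Here levels were recomputed from the counts with TMM factors (0.900 to 1.37, edgeR 4.0.16, R 4.3.3). DESeq2 1.42.0 gave only alternative size factors. Intervals of ratios are exact Clopper-Pearson intervals of the binomial share of the 2 counts. A count of 0 allows up to 3 counts, 0.107 to 0.13 CPM. The protocol names no molecular identifiers, so reads may be PCR copies and the intervals cover counting error only. Symbols were found for 12019 identifiers. No significance test was run: each group is 1 library, and the members and the gene lists were chosen with earlier results of these data known. The ratio and the 2-fold rule were tested on simulated data. Genes named beside the members are Ogt and Oga, genes of the lists and the 2 genes nearest in pattern to each member. The rule for lists was up to 2 highest and 2 lowest with at least 10 CPM in each knockout pair (1 each way in the other pairs). Some named list genes, such as Scd1 and Lmf1 in OGT-KO, fall outside that rule. Marker lists of endothelium, adipocytes and neutrophils were read too. In OGT-KO, 1 of 8, 1 of 3 and 3 of 3 genes with a row were 2-fold higher. The alternatives were library totals, DESeq2 size factors, a prior count of 10, and a minimum of 5 CPM or none. Some genes of the lists are not reported here.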

Additional observations from a re-analysis of the deposited data

Results flagged for a closer look

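Igfbp1 and Noct had OGA-KO ratios of opposite sign at the 2 times, with counting intervals that excluded 0 at both. For Igfbp1 the log2 ratio was 1.56 at 14 days and -1.11 at 28 days, a difference of -2.68. For Noct it was -1.03 and 0.67, a difference of 1.70. The share of all genes with such opposite signs was not counted. Genes outside the members had them too, such as Angptl4 at 0.46 at 14 days and -0.28 at 28 days. At least 2-fold at both times in opposite directions, a stricter rule, was found for 0.0257% of 11693 genes, among them Igfbp1 and not Noct. With 1 library per group the difference was not tested against a spread between pools. The Igfbp1 ratios rest on control levels of 25.5 and 81.6 CPM, and the Noct ratios on control levels of 38.9 and 12.9 CPM.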

How the results depend on the processing

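No paired analysis was possible because the labels give no replicate numbers beyond 1 library per group. Of 145 alternative values for counts over all genes, members and lists, 137 stayed within 1.5 times the reported count. Among alternative log2 ratios of the members, 128 stayed within the counting interval of the reported ratio and 16 did not. With a minimum of 5 CPM the genes 2-fold apart were 27 in OGA-KO at 14 days (99 reported), 160 in OGA-KO at 28 days (304), 45 between the OGA controls (109) and 73 between the OGA-KO libraries (156). With a prior count of 10 those in OGA-KO at 14 days were 49. By library totals 2 members, Rgs16 and Igfbp1, were apart between the OGA-KO libraries, and 1 phosphofructokinase gene was apart in any knockout pair in place of 2. Library totals also moved the share of higher genes among those apart from 58.3% to 77.3% in OGT-KO, with a shift of the median by 0.37, and from 45.3% to 68.6% between OGT control and OGA control, with a shift of 0.23. A minimum of 5 CPM moved that share from 56.0% to 71.1% between the OGA controls. With a control library left out, a choice made after seeing the data, members with a 2-fold range over the controls numbered 5 in each case, and all such genes 123 to 1270. A minimum of 5 CPM also ended the Rgs16 call in OGA-KO at 14 days (2 members in place of 3) and between the OGA controls (4 in place of 5), since its higher levels there were 4.26 and 4.81 CPM. No member 2-fold apart changed sign under any alternative run. In OGT-KO, Pck1, Angptl8, Mfsd2a and Noct, none of them 2-fold apart, changed sign by library totals. Depth limits Rgs16 most, with 16 counts in OGA control at 14 days. Everything rests on 1 pool per group.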
